A study of Mus musculus with 14 samples.

Results

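Alveolar type 1 cells are the thin, flat cells that line most of the gas-exchange surface of the lung, and 10 of their genes are described here: Ager, Hopx, Aqp5, Pdpn, Rtkn2, Cav1, Akap5, Clic5, Emp2 and Igfbp2. They were taken by symbol, as markers of this cell type with the caveolin gene Cav1 among them, and all 10 were found among the 55416 genes of the deposited tables. Gene expression was measured by RNA sequencing of lung and of gastrocnemius, a calf muscle, in male C57BL/6 (C57BL/6NCrlOri) mice that were 6 to 8 weeks old. There were 3 control and 5 tumour-bearing lung libraries, and 3 control and 3 tumour-bearing muscle libraries. The tumour model places cultured KrasIKKaL cells in the trachea, and the series asks about targets for cachexia and for immune side effects in muscle. The titles' CON and TB are read here as control and tumour-bearing. The sources used here do not say what the control animals received, where the cell line came from or how much of a lung sample was tumour.

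Type 1 cells cover the alveolus together with the cuboidal type 2 cells, which secrete surfactant and can give rise to new type 1 cells after injury. Their thin cytoplasm is rich in caveolae, small pits of the plasma membrane built on caveolin, and carries water and ion channels on the air side. The transcription factor NKX2-1 and the Hippo pathway partners YAP, TAZ and TEAD are known regulators of the type 1 state. Several of the genes are not confined to these cells. Cav1 is abundant in endothelium, Pdpn is made by lymphatic endothelium and mesothelium, and Hopx was first described in the heart.

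Sequence just before the start of transcription is shown for 5 members: Ager, the 3 whose profile over the lung libraries was closest to it (Akap5, Aqp5 and Hopx), and Cav1, whose profile was far from it. RefSeq promoter windows on build GRCm38.p6 matched 9 of the 10 members, with 12 windows in all, and Rtkn2 had none; the first of 2 windows is shown for Hopx and for Cav1. Each line gives 250 bases, 5′ to 3′ on the gene's strand, and capitals mark exact matches on either strand to any of 4 motifs. These are the TEAD motif CATTCC, the NKX2-1 core CTCAAG, the GC box GGGCGG and the TATA box TATAAA.
Ager, chr17:34597600-34597849, plus strand: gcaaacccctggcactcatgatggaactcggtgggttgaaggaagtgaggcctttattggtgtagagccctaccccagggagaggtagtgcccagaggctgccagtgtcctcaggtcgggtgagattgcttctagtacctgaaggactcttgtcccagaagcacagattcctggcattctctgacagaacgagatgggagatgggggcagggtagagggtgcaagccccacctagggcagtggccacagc
Akap5, chr12:76324641-76324890, plus strand: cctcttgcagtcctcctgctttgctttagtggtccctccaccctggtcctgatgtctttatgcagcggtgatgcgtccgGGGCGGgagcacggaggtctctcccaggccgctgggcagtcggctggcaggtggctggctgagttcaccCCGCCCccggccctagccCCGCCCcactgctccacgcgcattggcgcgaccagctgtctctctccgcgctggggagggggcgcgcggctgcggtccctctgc
Aqp5, chr15:99590778-99591027, plus strand: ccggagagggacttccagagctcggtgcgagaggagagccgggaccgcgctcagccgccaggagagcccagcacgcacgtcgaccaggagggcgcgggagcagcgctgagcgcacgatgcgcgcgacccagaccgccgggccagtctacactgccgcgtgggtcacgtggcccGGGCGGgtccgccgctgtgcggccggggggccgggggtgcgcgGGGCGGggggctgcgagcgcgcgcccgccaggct
Hopx, chr5:77115124-77115373, minus strand: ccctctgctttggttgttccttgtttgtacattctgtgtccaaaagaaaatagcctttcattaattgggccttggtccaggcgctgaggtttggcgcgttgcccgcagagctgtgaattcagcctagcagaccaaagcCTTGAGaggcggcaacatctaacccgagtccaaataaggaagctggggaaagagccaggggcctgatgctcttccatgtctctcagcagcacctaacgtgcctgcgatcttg
Cav1, chr6:17306085-17306334, plus strand: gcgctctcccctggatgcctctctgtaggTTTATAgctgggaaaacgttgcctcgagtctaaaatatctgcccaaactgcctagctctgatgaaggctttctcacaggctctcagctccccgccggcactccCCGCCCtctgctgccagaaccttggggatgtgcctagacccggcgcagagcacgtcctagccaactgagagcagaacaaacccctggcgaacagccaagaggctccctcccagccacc
The Ager window held no match to any of the 4 motifs. The Akap5 window held 3 GC boxes and the Aqp5 window 2. The Hopx window held 1 NKX2-1 core, written as its reverse complement, and the Cav1 window held 1 TATA box and 1 GC box, both on the other strand. No matches share a base in the printed windows. Over the 12 member windows, the GC box was present in 6, against 32.7% of all 32851 windows of that length, and the NKX2-1 core in 2, against 13.3%. The TATA box was present in 1, against 12.4%, and the TEAD motif in 0, against 12.6%. GC content ran from 43.2% (Pdpn) to 78.4% (Aqp5) in the member windows, against a median of 52.4% over all windows. These are letter matches only and say nothing of binding.

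Library totals ran from 47947363 to 61087315 counts in lung and from 32476194 to 44169410 in muscle. A count of 0 allows up to 3 counts, which is 0.0491 to 0.0924 CPM, the count scaled to library size, for counting error only. Levels are given in TPM, a transcript abundance corrected for transcript length, so that genes can be compared. Changes are on the log2 scale, tumour-bearing relative to control, from edgeR's quasi-likelihood test on expected counts, with standard errors (SE) and Benjamini-Hochberg adjusted p over all genes tested. A gene is called where the adjusted p is below 0.05. Nothing in the labels ties each library to an animal of its own, so a p-value speaks only of the spread among these libraries, which may be technical.

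All 10 genes were lower in tumour-bearing than in control lung. The mean TPM was 6.58-fold lower for Emp2, the least changed, and 136-fold lower for Rtkn2, the most changed. The fitted log2 changes ran from -2.27 to -6.60 with a median of -4.80, and adjusted p-values from 2.07e-05 (Cav1) to 0.000694 (Aqp5). Over all 19300 genes tested in lung, the median change was 0.07, 29.3% were lower and 30.4% higher, so a call in lung is common and the count of 10 of 10 is read against 29.3%. In no member did any of the 5 tumour-bearing libraries reach the lowest of the 3 controls. How many of all genes separate in this way was not counted, so no weight is put on it. All 10 passed the filter on low counts, and Rtkn2, with the fewest reads in tumour-bearing lung, still had 184, 7, 190, 107 and 46 counts there. In bulk tissue, fewer type 1 cells and less of these RNAs per cell cannot be told apart. On the scale of log2(TPM + 1) all 10 were called as well, with larger changes for Ager (-5.65), Aqp5 (-5.02), Cav1 (-3.97) and Hopx (-5.90) and a smaller one for Rtkn2 (-5.87). The median over all genes was -0.23 on that scale, with 3594 genes higher and 7994 lower, against 5862 and 5651 in edgeR.

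**Figure D1:**
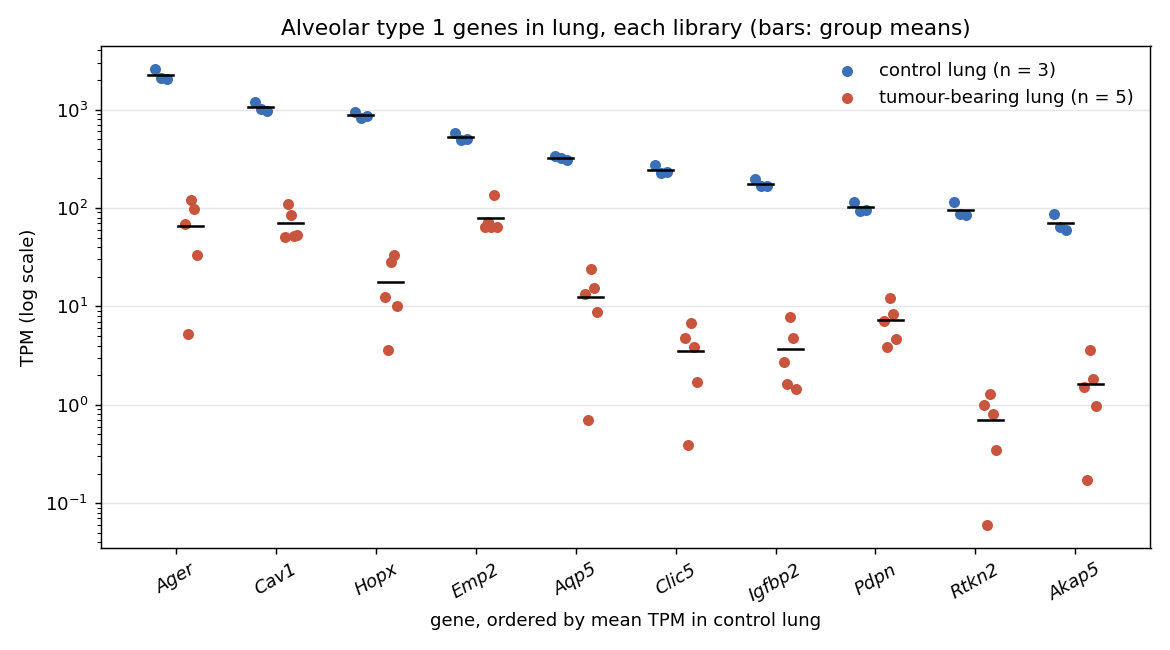
Level of each alveolar type 1 gene in every lung library, in TPM on a log scale, with genes ordered by their mean in control lung. Points are libraries, blue for the 3 controls and red for the 5 tumour-bearing ones, and bars are group means. The groups do not overlap for any gene shown, and the share of all genes without overlap was not counted. The lowest red point of Ager is 5.21 against a lowest control of 2063.59.

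Ager encodes RAGE, a cell-surface receptor of S100 proteins and HMGB1 that type 1 cells display at very high density. It had the highest level of the 10 genes in control lung, at 2601.94, 2092.86 and 2063.59 TPM. In tumour-bearing lung it stood at 68.92, 5.21, 119.34, 98.51 and 33.38 TPM in libraries 1 to 5. The controls lay close together, while the tumour-bearing libraries were spread widely, with library 2 far below the rest and all 5 below the controls. The mean went from 2253 ± 303 TPM (SD, n = 3) to 65.1 ± 46.6 (n = 5), a log2 change of -4.68 (SE 0.75, adjusted p = 0.000642). The level in library 2 was 0.231% of the control mean.

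The list of the receptor's ligands and co-factors gave calls in both directions. Of 11 ligands and co-factors, 10 were tested in lung: 4 were higher, 2 lower and 4 not called, with a median of 0.38. Over all genes tested in lung, 30.4% were higher and 29.3% lower, so these counts alone do not set the list apart. The same shares stand beside the counts of every lung list below. The S100 genes and Hmgb1 that were called were all higher. S100a6, a calcium-binding protein, had a mean of 770.5 ± 71.1 TPM in control lung and 8605.32 to 15532.04 in tumour-bearing lung (log2 change 4.33, adjusted p = 1.17e-05). S100a11, another ligand of the family, rose by a log2 change of 2.18 (adjusted p = 0.000357). The other calls were S100a4 (4.03) and Hmgb1 (0.82) upward, and App (-0.995) and Tlr4 (-0.66) downward, and Hmgb1 was no longer called with upper-quartile scaling (adjusted p = 0.0585) or on log2(TPM + 1) (adjusted p = 0.157).

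Aqp5, the water channel of the apical membrane of type 1 cells, stood at 339.42, 320.30 and 304.45 TPM in control lung. The tumour-bearing libraries had 13.22, 0.70, 23.91, 15.33 and 8.69 TPM. Library 2 was again the lowest and library 3 the highest, and the groups did not overlap. The change was -4.41 (SE 0.71, adjusted p = 0.000694). Among 13 aquaporins and alveolar ion transport genes, Aqp5 included, 8 were lower, 1 was higher and 4 were not called, with a median of -2.48. The 3 subunits of the epithelial sodium channel, which clears alveolar fluid, all fell: the log2 change was -2.48 for Scnn1a, -4.87 for Scnn1b and -4.57 for Scnn1g. These 3 were named after their values were seen.

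Clic5 belongs to the chloride intracellular channel family, whose proteins link the membrane to actin through ezrin-type adaptors. Its control libraries held 273.58, 228.04 and 233.31 TPM and its tumour-bearing libraries 4.79, 0.39, 6.80, 3.84 and 1.70. Library 2 was the lowest at 0.159% of the control mean and library 3 the highest at 2.78%. The change was -5.73 (SE 0.72, adjusted p = 0.000167) and exceeded that of every member but Rtkn2. Of the 5 family genes, 4 were lower, and the smallest p-values were those of Clic4 (-2.74, adjusted p = 8.16e-06) and Clic6 (-4.83). Clic1 was higher, at 391.86 to 663.22 TPM against 151.24 to 159.56 in control lung (2.06, adjusted p = 8.26e-05).

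Cav1 encodes caveolin-1, the scaffold protein of caveolae. In control lung it had 1194.73, 1007.53 and 978.36 TPM, the second highest level of the members. In tumour-bearing lung it had 50.85, 109.00, 84.31, 51.75 and 52.66 TPM. Library 2, the lowest for Ager, Akap5, Aqp5, Clic5, Hopx, Pdpn and Rtkn2, was the highest for Cav1, and the whole range was narrow, from 4.80% to 10.3% of the control mean. The change was -3.25 (SE 0.28), with the smallest adjusted p of the members (2.07e-05). Markers of blood endothelium, where Cav1 is also abundant, moved in the same libraries. All 14 of them were lower, with a median of -4.25, Pecam1 fell by 4.31 (adjusted p = 8.26e-07) and Cdh5 changed by -4.28. Their summed level was 2365 to 2524 TPM in control lung and 114 to 178 in tumour-bearing lung, or 4.72% to 7.35% of the control mean, and none was at 0 in all tumour-bearing libraries. Their part in the result for Cav1 was not tested.

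Of 10 caveola coat genes, Cav1 included, 4 were lower, 3 higher and 3 not called, with a median of -0.90. Cavin2, a coat protein that shapes caveolae, fell by 3.53 (adjusted p = 1.25e-05), and Ehd2, the ATPase at the caveolar neck changed by -1.77 (named after its values were seen). Cav2, the partner of caveolin-1 in hetero-oligomers, had 212.18 to 228.56 TPM in control lung and 65.84 to 183.04 in tumour-bearing lung, a change of -0.21 that was not called (adjusted p = 0.534). Cavin1, which is needed for caveolae to form, changed by -0.43 (adjusted p = 0.0715). Pacsin3 (1.78), Cavin3 (0.95) and Pacsin2 (0.44) were called higher, but Pacsin2 was not with upper-quartile scaling (adjusted p = 0.0678) and took the opposite sign on log2(TPM + 1) (-0.03, adjusted p = 0.892). The list gave 5 lower and 2 higher with upper-quartile scaling, 7 and 2 on log2(TPM + 1), and 6 and 3 with limma-voom.

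Emp2, a tetraspan protein of the type 1 cell membrane that associates with integrins, kept the most of its control level. It had 581.76, 492.40 and 503.52 TPM in control lung and 63.36, 71.45, 64.52, 136.30 and 63.91 in tumour-bearing lung. Tumour-bearing libraries 1, 2, 3 and 5 lay within 12% to 13.6% of the control mean, and library 4 stood apart at 25.9%. The change was -2.27 (SE 0.29, adjusted p = 0.000171). In the family of 4, Pmp22, the peripheral myelin protein, fell by 3.42 (adjusted p = 1.2e-05), while Emp3 rose by 2.68 (adjusted p = 0.000161) and Emp1 by 2.04 (adjusted p = 0.00558).

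Pdpn, podoplanin, is a mucin-like glycoprotein of the type 1 cell surface that binds the platelet receptor CLEC-2. Its control libraries had 114.75, 93.45 and 95.70 TPM, and its tumour-bearing libraries 7.04, 3.82, 12.17, 8.33 and 4.64. Library 2 was the lowest and library 3 the highest, at 3.77% and 12% of the control mean. The change was -3.37 (SE 0.32, adjusted p = 3.68e-05). Markers of lymphatic endothelium and mesothelium, which also make podoplanin, were counted in the same libraries. Of 6 lymphatic endothelial markers, 5 were lower and Prox1 was higher (2.40), and their summed level was 547 to 573 TPM in control lung and 22.8 to 63.9 in tumour-bearing lung. Of 6 mesothelial markers, Upk3b (-5.83), Upk1b (-4.63) and Lrrn4 (-5.58) were lower, Msln (4.75) and Krt19 (2.96) were higher, and Wt1 was not called (0.02). The summed mesothelial level was 343 to 377 TPM in control lung and 1297 to 2898 in tumour-bearing lung. That sum was mostly Krt19 (302.78 to 312.89 TPM in control and 1197.40 to 2617.74 in tumour-bearing lung), which is also among the transitional genes below. Upk3b and Lrrn4 stood at 0.21 TPM or less in tumour-bearing lung. At such levels both reached the filter through the controls alone, which fixes the direction they could show. None of these markers was at 0 in all tumour-bearing libraries, and their part in the result for Pdpn was not tested. Of 8 binding partners of podoplanin, 3 were higher, 3 lower and 2 not called. Clec1b, which encodes CLEC-2, fell by 3.73 (adjusted p = 0.000109), and Ezr, encoding the adaptor ezrin, rose by 1.90 (adjusted p = 0.000595). On log2(TPM + 1) 2 partners were higher and 5 lower, and Cd9 was no longer called (adjusted p = 0.26).

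Hopx encodes a homeodomain protein that does not bind DNA itself and marks type 1 cells and their precursors. In control lung it had 939.23, 827.57 and 867.63 TPM. The tumour-bearing values were 12.52, 3.60, 28.19, 33.00 and 10.11 TPM. Library 2 was the lowest, and the highest, library 4, was at 3.76% of the control mean. The change was -5.32 (SE 0.62, adjusted p = 0.000112). Hopx overlaps the antisense gene Hopxos on the opposite strand in the GENCODE M21 annotation, and the strand setting of the counting is not given, so reads of the pair may be mixed. Cav1 and Rtkn2 also have genes on the opposite strand (Gm15581 and Gm16212), both at 0.29 TPM or less on average in lung. Hopxos itself was listed at a mean of 3.20 TPM in control lung and 0.08 in tumour-bearing lung. Heart muscle markers, of a tissue that also makes Hopx, were present in control lung, at a summed 313 to 1058 TPM against 106 to 453 in tumour-bearing lung. Of 6, Ryr2 (-5.28), Myl7 (-5.79), Myh6 (-6.03) and Actc1 (-5.03) were lower and Nppa and Tnnt2 were not called. The tumour-bearing sum was mostly Tnnt2 (105.27 to 384.69 TPM), and the medians of the other 5 there ran from 0.00 to 0.09 TPM. Their highest tumour-bearing values, such as 20.93 TPM for Myl7 and 21.85 for Myh6, were far above those medians, and without tumour-bearing library 2 the median change of the list went from -5.16 to -11.07. None of the 6 was at 0 in all tumour-bearing libraries. At such low medians a gene may reach the filter through the controls alone, which fixes the direction it can show. No weight is put on the lower calls of these markers. Their part in the result for Hopx was not tested.

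Akap5 encodes a scaffold that anchors protein kinase A and calcineurin at the membrane. It had the lowest control level of the 10 genes, at 86.48, 64.64 and 60.10 TPM. In tumour-bearing lung it stood at 1.52, 0.17, 3.58, 1.83 and 0.96 TPM. Its tumour-bearing libraries took the same order as those of Ager, from library 2 up through 5, 1 and 4 to 3, and none reached the controls. The change was -4.91 (SE 0.70, adjusted p = 0.000348). Of 10 kinase, phosphatase and cyclase subunits that it anchors, 4 were lower, 2 were higher and 4 were not called, with a median of 0.02. Adcy5, an adenylyl cyclase, fell by 4.67 (adjusted p = 3.27e-05), and Ppp3ca, the calcineurin catalytic subunit, changed by -1.08 (adjusted p = 0.00196). On log2(TPM + 1) neither upward call was made, for Adcy6 (adjusted p = 0.21) or Ppp3r1 (0.298), and the list gave 0 higher and 5 lower with a median of -0.40.

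Rtkn2, a relative of rhotekin, an effector of small GTPases, changed the most. Its control libraries had 115.25, 87.56 and 84.25 TPM and its tumour-bearing libraries 1.00, 0.06, 1.29, 0.81 and 0.35. The highest of these, library 3, was at 1.35% of the control mean and the lowest, library 2, at 0.0627%. The change was -6.60 (SE 0.73, adjusted p = 8.16e-05). Among 7 small GTPases, their kinases and rhotekins, Rtkn2 included, 2 were lower, 2 higher and 3 not called. Rtkn, the founding rhotekin, went the other way, from 24.07 to 31.48 TPM in control lung to 37.78 to 74.60 in tumour-bearing lung (1.45, adjusted p = 0.000647). On log2(TPM + 1) the list gave 1 higher and 4 lower, and Rhoc was no longer called (adjusted p = 0.0568).

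Igfbp2, a secreted binding protein of insulin-like growth factors that marks a mature subset of type 1 cells, had 197.66, 165.34 and 166.73 TPM in control lung. It had 2.73, 1.61, 7.76, 4.74 and 1.45 TPM in tumour-bearing lung. Library 5 was the lowest here, just under library 2. The change was -5.32 (SE 0.52, adjusted p = 4.36e-05). In the family of 13 growth factors, receptors and binding proteins, 5 were lower, 2 higher and 6 not called. Igfbp6 fell by 4.99 (adjusted p = 2.36e-06), and Igfbp3 rose from a mean of 78.8 ± 0.228 TPM to between 309.14 and 666.01 (3.20, adjusted p = 3.06e-05).

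**Figure D2:**
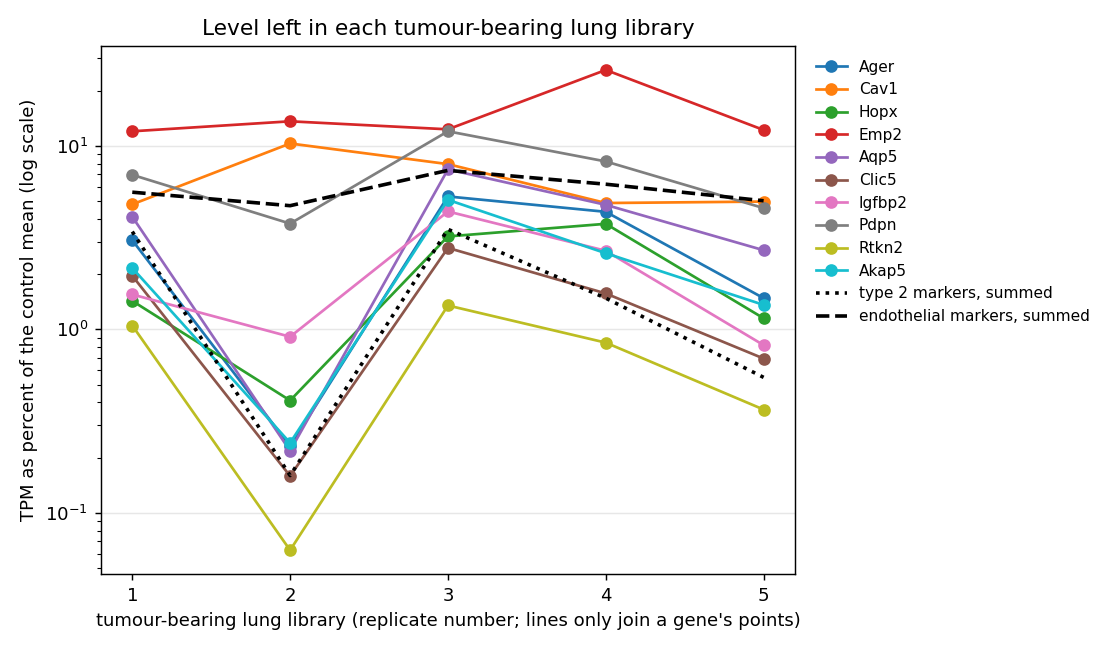
TPM of each gene in the 5 tumour-bearing lung libraries as a percent of its control mean, on a log scale, with the summed type 2 markers (dotted) and blood endothelial markers (dashed). Lines only join the points of a gene: 7 of the 10 genes and the type 2 sum (0.16%) are lowest in library 2, where Cav1 is at 10.3% and the endothelial sum at 4.72%.

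The log2 ratio of each of the other 9 to Ager was compared between the lung groups. Relative to Ager, Emp2 was higher in tumour-bearing lung by 2.90, Cav1 by 1.93 and Pdpn by 1.77, while the difference was -1.97 for Rtkn2 and -0.99 for Clic5. In these 5 of 9 the groups did not overlap, against 91.4% of all 17731 genes with a ratio to Ager. Each of the 5 had the smallest two-sided exact permutation p that 3 against 5 libraries allow, 0.0357. Benjamini-Hochberg adjustment of the exact permutation p over the 9 comparisons gave 0.0643 for each of the 5, so none is called. For Akap5 (-0.18), Aqp5 (0.26), Hopx (-0.45) and Igfbp2 (-0.36), the ratios overlapped between groups, with exact permutation p from 0.25 to 0.679. In tumour-bearing lung the ratio of Cav1 to Ager ran from -0.25 to 5.09, with a control range of -0.68 to -0.50.

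Among 11403 genes, the profile closest to that of Ager over the 8 lung libraries was that of Plekhd1, with a root mean square difference of 0.158 on the log2 CPM scale. Gjb6 (0.239), a connexin gene, Togaram2 (0.255), Atp6v1c2 (0.263), a subunit of the proton-pumping ATPase, and Akap5 (0.27) followed. Plekhd1 stood at 9.47 to 11.38 TPM in control lung and at 0.32, 0.03, 0.59, 0.44 and 0.19 TPM in the tumour-bearing libraries, the same order as Ager. Aqp5 ranked 8, Hopx 35, Clic5 90 and Igfbp2 121, whereas Rtkn2 ranked 564, Pdpn 711, Cav1 1180 and Emp2 1589. With a prior count of 0.5 in place of 2, 3 of the 5 named genes were named again.

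Other genes of the same cell type gave a wider spread. Of 23 further alveolar type 1 genes, 17 were lower, 3 higher and 3 not called, with a median of -2.36. Cryab, a small heat shock protein, fell from 430 ± 13.2 TPM (n = 3) to between 18.88 and 27.92 (-3.77, adjusted p = 1.52e-06), and Timp3, an inhibitor of matrix metalloproteases, changed by -3.30 (adjusted p = 2.36e-06). The 3 that were higher were Krt7 (3.46), a keratin of simple epithelia, Tspan8 (2.93), a tetraspanin, and Myrf (1.99), a membrane-bound transcription factor. Krt7 had 165.45 to 219.11 TPM in control lung and 811.47 to 1835.23 in tumour-bearing lung. Fstl3 (-0.80) and Mal2 (-1.60) were not called. These 5, as well as those of other lists given below by count of 5 or fewer, were named after their values were seen.

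Of 17 regulators of the type 1 state, 8 were lower and 9 not called, with a median of -0.39. Lats2, a Hippo kinase, fell by 2.57 (adjusted p = 1.41e-05) and Tead1, a DNA-binding partner of YAP, changed by -1.65 (adjusted p = 0.000276). Nkx2-1, the lung lineage factor, fell from 77.57 to 93.54 TPM in control lung to between 0.04 and 5.28 (-4.48, adjusted p = 0.00202). Yap1 (-0.58) and Wwtr1, which encodes TAZ (-1.12), were also lower, as were Stk4, Cebpa and Tead4. Of 9 target genes of YAP and TAZ, with Lats2 and Tead1 again among them, 4 were lower, 3 higher and 2 not called, with a median of -0.40. Over all genes tested in lung, 29.3% were lower and 30.4% higher. Amotl2 fell by 2.30 (adjusted p = 0.000132), and Ccn2 was not called (0.31). Of the 3 higher, Axl, Ankrd1 and Ajuba, the calls of Ankrd1 (adjusted p = 0.199) and Ajuba (0.316) were lost on log2(TPM + 1), and that of Ajuba also with the other 2 scalings.

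Markers of other lung cells were measured in the same libraries. All 12 type 2 markers were lower, with a median of -4.64. Their summed level went from between 40930 and 47310 TPM to between 69.1 and 1510, and it was lowest in tumour-bearing library 2, at 0.16% of the control mean. Lpcat1 fell by 3.25 (adjusted p = 3.4e-06) and Hc changed by -6.14. All 7 club and ciliated cell markers were lower, with a median of -6.13, and the smallest p-values were those of Tppp3 (-6.04) and Scgb3a2 (-6.67). Of 9 fibroblast markers 5 were lower and 4 not called, among them Pdgfra (-4.75) and Tcf21 (-6.27). In contrast, 6 of 7 pan-epithelial genes were higher and 1 was not called, with a median of 2.09. Of 12 genes of the transitional state between type 2 and type 1 cells, 9 were higher, 1 (Sfn) lower and 2 not called, with a median of 1.80. Both lists hold 2 keratins that were higher: Krt18 rose by 4.75 (adjusted p = 5.98e-06) and Krt8 by 3.96 (adjusted p = 1.9e-05). On log2(TPM + 1), Elf3 of the first list and Areg, Hbegf and Plaur of the second were no longer called. All 8 proliferation genes were higher, with a median of 3.72, among them Ccnb1 (4.10) and Cdk1 (4.30). How far other cells moved the values of the 10 members was not tested.

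**Figure D3:**
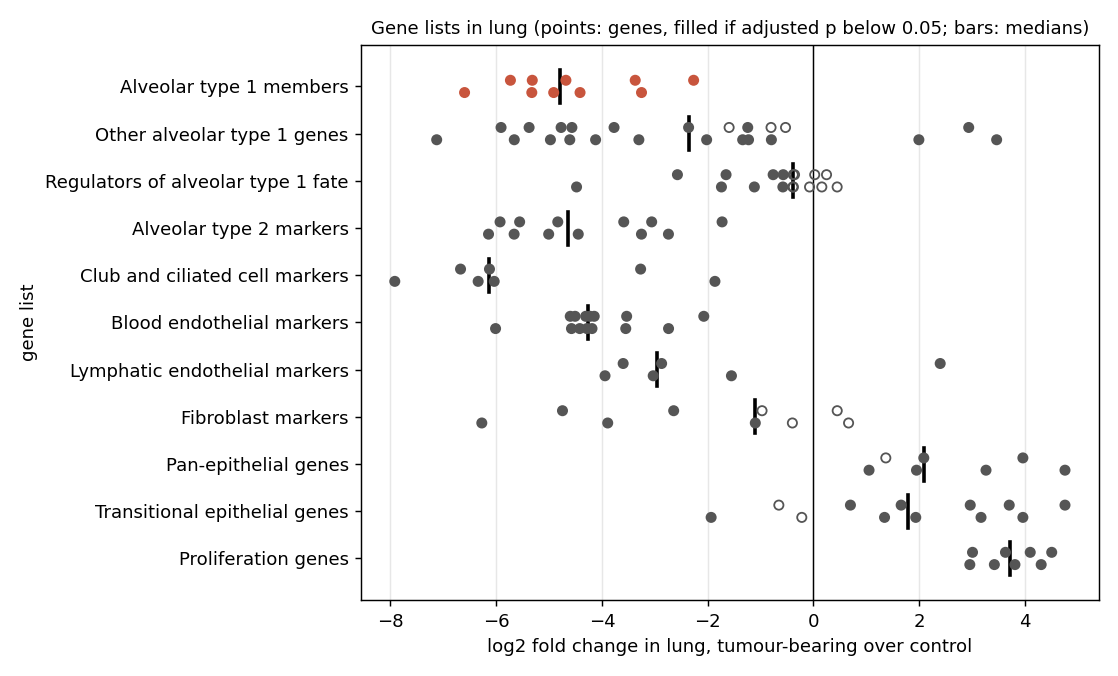
Log2 fold change in lung of every tested gene of 11 lists, with the 10 members in red at the top; points are genes, filled where the adjusted p is below 0.05, and bars are list medians. The members lie between -6.60 and -2.27, close to the type 2 (median -4.64) and endothelial (-4.25) markers, while pan-epithelial (2.09), transitional (1.80) and proliferation genes (3.72) lie mostly to the right of 0.

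RSEM also reports for each gene a mean transcript length, weighted by the abundance of its isoforms, so a change in this length is a change in the mix of isoforms. In lung it differed between groups without overlap in 8 of the 9 members with at least 10 counts in every lung library, against 28.0% of 12449 genes with several transcripts. The shifts of Ager (19.5 bases), Pdpn (16.4), Emp2 (0.597) and Clic5 (-57.1) were small beside the lengths. Cav1 went from 1871 ± 78.1 bases (n = 3) to 2170 ± 192 (n = 5), with 1787.06, 1886.00 and 1941.19 bases in the controls and 2487.15, 2215.98, 2054.22, 2069.83 and 2023.72 in the tumour-bearing libraries. In control muscle it was 2531 ± 14.6 bases (n = 3). The GENCODE M21 annotation lists a Cav1 transcript of 2522 bases (Cav1-201) and one of 995 (Cav1-205). Akap5 went from 6151 ± 204 to 6659 ± 36.8 bases, nearer to its long transcripts of 6687 and 6685 bases than to one of 2711.

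Hopx and Igfbp2 moved the other way. Hopx went from 1231 ± 2.79 bases in control lung to 1155 ± 12.0, and control muscle had 1145 ± 16.7. Igfbp2 went from 1269 ± 2.58 to 1151 ± 40.8 bases, between annotated transcripts of 1307 and 991 bases. For the 8 members without overlap the two-sided exact permutation p was 0.0357, the smallest that 3 against 5 allow. Benjamini-Hochberg adjustment of the exact permutation p over the 15 comparisons of members and tissues gave 0.067 for each of the 8, so none is called. Aqp5 (exact permutation p = 0.643) and Rtkn2 (p = 0.4, over 4 tumour-bearing libraries) overlapped between groups. In muscle, Cav1 was at 2521.40, 2524.37 and 2548.08 bases in the controls and 1955.15, 2489.73 and 2466.43 in the tumour-bearing libraries, but 3 against 3 cannot go below an exact p of 0.1. Low counts enter these lengths, such as 52 for Akap5 in tumour-bearing library 2, and 75 and 54 for Igfbp2 in libraries 2 and 5. The sources used here do not name the annotation behind the deposited lengths, and GENCODE M21 serves only to give the lengths of known transcripts.

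**Figure D4:**
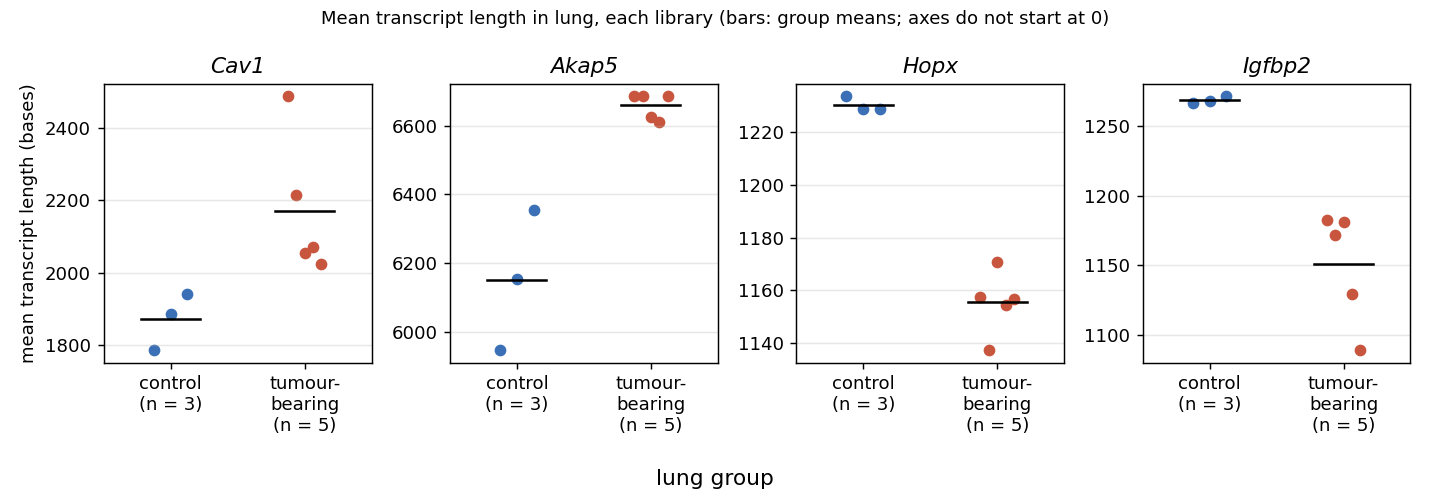
Mean transcript length in bases of Cav1, Akap5, Hopx and Igfbp2 in each lung library; points are libraries (3 control, 5 tumour-bearing), bars are group means, and the axes do not start at 0. Cav1 and Akap5 are longer in tumour-bearing lung and Hopx and Igfbp2 shorter, with no overlap between the groups. The exact permutation p is 0.0357 for each (two-sided), and 0.067 after Benjamini-Hochberg adjustment.

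Gastrocnemius has no alveoli, and the members were low there. All 10 were higher in control lung than in control muscle (n = 3 and 3), as were 37.9% of all 19834 genes tested, with adjusted p from 8.5e-08 (Emp2) to 0.00455 (Clic5). Aqp5 and Igfbp2 did not pass the filter in muscle and entered this fit through lung alone, which fixes the direction they could show. The members were also chosen as markers of a lung cell type. Ager was at 0.19, 0.14 and 0.11 TPM in the muscle controls, and the log2 difference was 11.35 (SE 1.36). Hopx, Akap5, Aqp5, Igfbp2, Rtkn2 and Emp2 had control means from 0.0667 to 1.43 TPM in muscle. Cav1, Clic5 and Pdpn were the 3 with the highest muscle levels, at 31.1 ± 4.38, 6.85 ± 4.06 and 1.96 ± 0.836 TPM (n = 3). For Cav1 the difference was 2.04 on this scale and 5.05 on log2(TPM + 1), where the median of all genes moved from 0.51 to 1.47 and the split from 7516 higher and 4881 lower to 14899 and 1243. By mean TPM in control lung the order was Ager, Cav1, Hopx, Emp2, Aqp5, Clic5, Igfbp2, Pdpn, Rtkn2 and Akap5. Pdpn (93.45 to 114.75) and Rtkn2 (84.25 to 115.25) overlapped in that order, as did Rtkn2 and Akap5 (60.10 to 86.48), and the other neighbours did not.

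In muscle, 8 of the 10 members passed the filter on low counts, and 2 of them were called, both lower in tumour-bearing mice. Of all 14373 genes tested in muscle, 6.75% were lower and 8.53% higher (970 and 1226 genes). Upper-quartile scaling moved the median of all genes in muscle from -0.03 to -0.25 and that split to 1079 and 760. Akap5 had 17, 22 and 24 counts in control muscle and 5, 3 and 2 in tumour-bearing muscle (-2.83, SE 0.59, adjusted p = 0.0194). Rtkn2 had 49, 25 and 19 counts in the controls and 0, 6 and 0 in the tumour-bearing libraries (-3.91, SE 0.94, adjusted p = 0.0297). Both genes reached the filter through the control group alone, which fixes the direction they could show, and neither exceeded 0.28 TPM in any muscle library. Leaving out any 1 control library ended both calls (adjusted p from 0.0554 to 0.0918 for Akap5 and from 0.0911 to 0.1 for Rtkn2). The call of Rtkn2 was also lost without tumour-bearing library 1 (0.0544) or 3 (0.0626), and without library 2 its fitted change was -7.94. On log2(TPM + 1) neither was called (adjusted p = 0.375 and 0.097), and in 1 fit of all libraries Akap5 was not (0.0553).

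The other 6 tested members were not called in muscle. Cav1 had 35.53, 26.77 and 30.85 TPM in control muscle and 48.20, 33.12 and 14.82 in tumour-bearing muscle (-0.42, adjusted p = 0.337), and the groups overlapped. Clic5 had 11.38, 5.63 and 3.53 TPM against 36.06, 8.45 and 5.43 (1.06, adjusted p = 0.155), with tumour-bearing library 1 far above the rest. Ager had 11, 8 and 7 counts against 29, 5 and 94 (2.50, adjusted p = 0.111), and its change was 0.57 without tumour-bearing library 3. That same library held 44 of the counts of Aqp5, which had 3, 4 and 13 in the controls and 7 and 2 in the other two. Emp2 (-0.86), Hopx (0.59) and Pdpn (-0.21) had adjusted p-values from 0.149 to 0.736. Igfbp2, with 0 to 11 counts per library, and Aqp5 were not tested. Markers of skeletal muscle summed to 56270 to 93290 TPM in control muscle and 62790 to 72880 in tumour-bearing muscle.

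**Figure D5:**
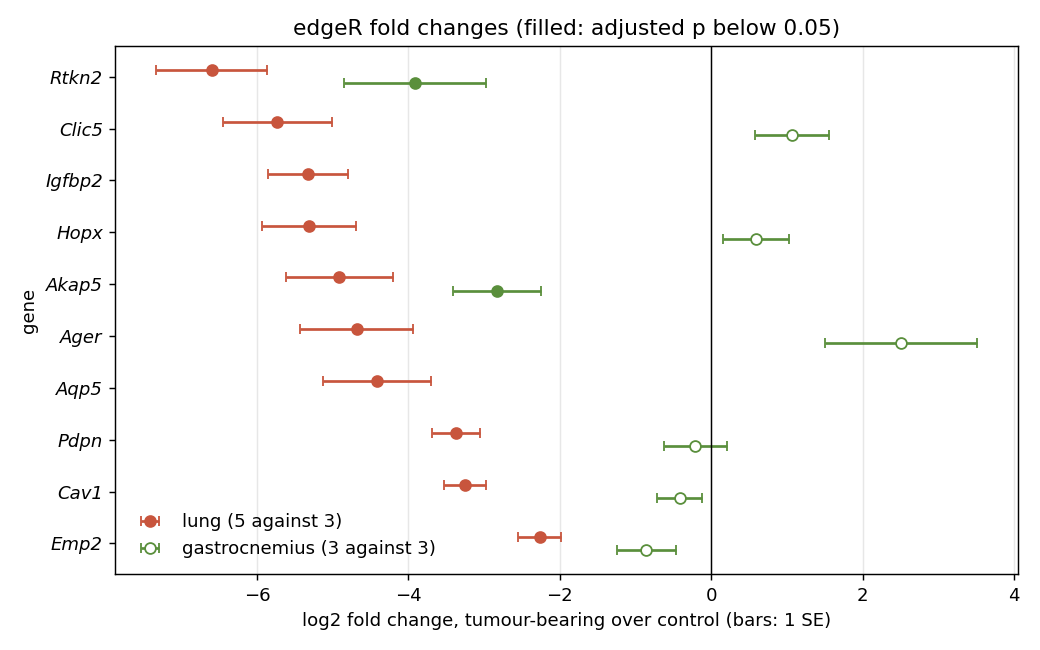
Log2 fold change of tumour-bearing over control for each member in lung (red, 5 against 3 libraries) and gastrocnemius (green, 3 against 3), with bars of 1 SE and filled points where the adjusted p is below 0.05. All 10 lung points lie between -6.60 and -2.27, and in muscle only Rtkn2 and Akap5 are filled; Igfbp2 and Aqp5 have no muscle point because their counts were too low.

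The difference between the tissues' changes was tested in 1 fit of all 14 libraries. Aqp5 and Igfbp2, which did not pass the filter in muscle, entered that fit through lung alone. The change in lung was below that in muscle for 7 of the 10 members, against 19.0% of 19834 genes in that direction. On log2(TPM + 1) all 10 were called, with a median of -0.33 over all genes and a split of 2401 higher and 6624 lower, against -0.05, 3287 and 3770 here. The differences were -7.12 for Ager (SE 1.36, adjusted p = 0.00116), -6.78 for Clic5, -5.89 for Hopx, -5.86 for Aqp5, -3.15 for Pdpn, -2.85 for Cav1 and -1.42 for Emp2 (SE 0.48, adjusted p = 0.0312). They were not called for Igfbp2 (-3.84, adjusted p = 0.0581), Akap5 (-2.08, adjusted p = 0.223) and Rtkn2 (-2.63, adjusted p = 0.232). Without tumour-bearing muscle library 3 the difference was -5.27 for Ager (adjusted p = 0.00582), and the call of Aqp5 was lost (-3.44, adjusted p = 0.137). That of Emp2 was lost in 8 of the 14 fits that leave out 1 library, namely muscle controls 1 and 2, tumour-bearing muscle 2 and 3, the 3 lung controls and tumour-bearing lung 5 (adjusted p from 0.0519 to 0.0866). Igfbp2 was called without muscle control 2, tumour-bearing muscle 1 or tumour-bearing lung 3 (adjusted p from 0.023 to 0.0374).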

How the data were processed

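Total RNA of lung and gastrocnemius was sequenced from a strand-preserving kit (MGIEasy RNA Directional) at a read length of 100 bases, per the labels. Trim Galore, STAR 2.7.9a and RSEM 1.3.3 are named in the submitters' processing notes, but those notes and the labels leave out their settings, the strand option of counting, the genome build and the annotation. For each of the 14 libraries the authors deposited RSEM's expected counts (estimated, with decimals), TPM, and a mean transcript length in bases. That deposited length is another quantity than the read length and is weighted by isoform abundance. Of the 55416 identifiers, 52083 matched a mouse symbol and 3333 did not.

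Expected counts were rounded to whole numbers and fitted in R 4.3.3 with edgeR 4.0.16 (TMM, filterByExpr, glmQLFit and glmQLFTest, two-sided), each tissue on its own, with Benjamini-Hochberg adjustment over all genes tested. The interaction and the contrast of control lung with control muscle came from 1 fit of all 14 libraries. Alternatives were other scalings and filters, DESeq2 1.42.0, limma 3.58.1 (voom, and trend on log2(TPM + 1), a pseudocount of 1), 1 fit of all libraries, a replicate block and leaving out each library. The scripts were tested on simulated data. Transcript lengths were compared by a two-sided exact permutation test over libraries with at least 10 counts. Log2 ratios of CPM to Ager, without a prior count, were compared by the same test over all 8 lung libraries. The comparison of ratios was added after the data were seen. Profiles compared with that of Ager used log2 CPM with a prior count of 2.

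Named genes were all 10 members, the 2 genes with the smallest unadjusted p in lung of each of 26 further lists, marker genes beside a result, and the 5 genes with a mean of at least 5 CPM in control lung whose centred profile was most like that of Ager. Some genes that this rule takes are not reported here. The 27 lists hold 239 genes and all were found. The members and lists were chosen with earlier results of these data known. Lists are described by counts and medians, with no set test. Results of the lists on smooth muscle, skeletal muscle, adipocytes and leukocytes are among the other observations. Replicate numbers in the titles were not treated as pairing the libraries.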

Additional observations from a re-analysis of the deposited data

Results flagged for a closer look

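Of the 10 members, each examined over the 5 tumour-bearing lung libraries, 1 had a library far from the others. Emp2 stood at 136.3 TPM in tumour-bearing lung library 4, with the other 4 libraries between 63.36 and 71.45. Chance alone marks about 1 group in 20 of this size, and 10 groups were examined. Without that library the change of Emp2 in lung was -2.54 (edgeR, adjusted p = 2.01e-05).

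For 7 members the change in lung differed from the change in muscle by the test of the interaction (edgeR, adjusted p from 0.000104 to 0.0312). Of all 19834 genes tested, 19.0% were called with the lung change below the muscle change, the direction of all 7. The calls of Aqp5 and Emp2 were lost in some fits that leave out 1 library, as given above. The difference of log2 fold changes, lung minus muscle, was -7.12 for Ager, -5.86 for Aqp5, -2.85 for Cav1 and -6.78 for Clic5. It was -1.42 for Emp2, -5.89 for Hopx and -3.15 for Pdpn. For Aqp5 the muscle side rests on 2 to 44 counts per library, and for Ager on 5 to 94.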

How the results depend on the processing

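All 10 members kept their lung call and direction under each alternative run, and the number of lung genes called stayed between 9171 and 12367. In muscle, 2196 genes were called, but 4031 with no filter, 3658 with DESeq2, 415 on log2(TPM + 1), 3459 in 1 fit of all libraries and 106 to 4513 when 1 library was left out. The 2 members called there became 4 with no filter, 0 with a mean of at least 1 CPM, 0 on log2(TPM + 1), 1 in 1 fit of all libraries and 0 to 3 when 1 library was left out. The filter changes which genes are tested, and for the other settings the cause was not tested. Pdpn in muscle took the opposite sign without tumour-bearing library 2 (0.058) or 3 (0.02), within a range of -0.83 to 0.058 when 1 library was left out. So did Rtkn2 in the interaction without tumour-bearing muscle library 2 (2.91, within a range of -3.39 to 2.91), where Rtkn2 is left with counts of 0 in tumour-bearing muscle. With the replicate block, 10298 lung genes and 3303 muscle genes were called, and the 10 and 2 members called were as many as without it; the lung changes of Ager, Aqp5, Hopx and Akap5 were then -5.42, -5.12, -6.02 and -5.51. Same-numbered libraries' deviations from their group means correlated at 0.037, 0.058 and -0.001 in lung and 0.356, -0.046 and 0.366 in muscle, so the numbers were not taken to pair them; not every library correlated best with its own number. Between the control tissues DESeq2 called 9 members. Depth limits Ager, Akap5, Aqp5, Igfbp2 and Rtkn2 in muscle, where most libraries hold under 50 counts of each.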

Other observations

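Markers of further cell types were counted in the same libraries, with no explanation tested. In lung, 4 of 7 smooth muscle and pericyte markers were lower and 3 not called, with Des at -3.15 and Pdgfrb at -1.41. All 7 were lower with limma-voom, on log2(TPM + 1) and in 1 fit of all libraries, and 5 were with DESeq2 and with the other 2 scalings. Of 8 leukocyte markers 4 were lower, among them Ncr1, a natural killer cell receptor (-6.07), and Ptprc, which encodes the pan-leukocyte antigen CD45 (-2.70), and 4 were not called. Of 4 adipocyte markers tested, Plin1 (-7.28) and Cidec (-1.51) were lower and 2 were not called. Plin1 had 0.94 to 1.33 TPM in control lung and 0.00 to 0.02 in tumour-bearing lung, and Ncr1 1.51 to 2.52 against 0.00 to 0.06. At such levels both reached the filter through the controls alone, which fixes the direction they could show. Of 4 skeletal muscle markers tested in lung, Ckm (-6.20), Tnnt3 and Acta1 were lower and Mylpf was higher (1.23), all at low levels. Ckm and Acta1 had medians of 0.06 and 0.1 TPM in tumour-bearing lung and may have reached the filter through the controls alone.

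In gastrocnemius, 6 of 8 fibroblast markers tested were lower in tumour-bearing mice, with a median of -2.86, and 2 were not called. Of all 14373 genes tested in muscle, 6.75% were lower and 8.53% higher. The number of muscle genes called ran from 106 to 4513 when 1 library was left out, and the fibroblast calls are not given for those fits. The 14 blood endothelial markers gave 1 higher, 2 lower and 11 not called there, with a median of -0.03, against 14 of 14 lower in lung. Igfbp1, a liver-type binding protein, had 0.05 to 0.36 TPM in control lung and 0.60 to 217.48 in tumour-bearing lung (8.79, adjusted p = 0.00472). Igfbp1 was named after its values were seen.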
